A study of Homo sapiens with 6 samples.

Results

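The RNA of 10 genes of the tumour necrosis factor (TNF) receptor superfamily, CD40, NGFR, TNFRSF1A, TNFRSF1B, TNFRSF10A, TNFRSF10B, TNFRSF11B, TNFRSF12A, TNFRSF21 and FAS, was compared between breast cancer cells with a control hairpin and cells with a hairpin against HSF1, the transcription factor of the heat shock response. These 10 receptors were chosen by name from a table of 28058 genes, with their values in the same comparison already known. They are 10 of the 29 receptors of the superfamily that were looked up in the table. Their own differences between the groups are therefore described and carry no test, and p-values are given only for genes outside the 10. CD40 and NGFR were close to silent in the control cells and readable in every library with the HSF1 hairpin. TNFRSF21 and TNFRSF11B were higher with that hairpin, TNFRSF10B was lower, and the groups overlapped for TNFRSF1A and TNFRSF12A.

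The cells were MDA-MB-231, an established human line from a triple-negative breast adenocarcinoma, grown in DMEM with serum and antibiotics. In 3 libraries the cells carried a control short hairpin RNA (shCTL, genotype label CTL), and in 3 they carried one directed against HSF1 (shHSF1, genotype label HSF1 shRNA), with no other treatment named for either group. The labels and files used here state neither the hairpin sequences nor whether replicates were separate cultures or clones. The tags TGL and cl stand in the column names of all 6 libraries, and neither is explained there. The p-values therefore reflect the spread among these 6 libraries alone, and that spread may be technical. The values are RPKM, in which a read count is scaled to gene length in kilobases and to the reads assigned in the library. Each level is thus a length-scaled share of the reads of its library, and comparisons between genes and between libraries are of such shares.

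Receptors of this superfamily sit in the cell membrane, bind ligands of the TNF family through cysteine-rich repeats and signal by clustering. Receptors with a death domain recruit adaptors such as FADD and TRADD, which can lead to caspase activation or to NF-kappaB signalling, while receptors without one bind TRAF proteins directly and act mainly on NF-kappaB and MAP kinases. Decoy receptors bind the same ligands and pass on no death signal. In epithelial tumours the family is known for TRAIL-driven apoptosis, for responses to TNF from immune cells, and for CD40, which is best known on B cells and dendritic cells as the receptor of T cell help.

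Between 33988307 and 70449758 reads were assigned to genes in each library, and the first principal component of all tested genes held 71.1% of the variance and separated the groups. HSF1 was at 61.2, 53.3 and 47.9 RPKM in shCTL and at 5.01, 4.70 and 3.84 RPKM in shHSF1 (log2 change -3.44, SE 0.123, limma adjusted p = 3.78e-06). An exact two-sided permutation test over the 6 libraries gave p = 0.1, the smallest that 3 libraries against 3 allow. The markers VIM, CD44, KRT18, KRT8, AXL and ZEB1 were all expressed, KRT5 had no read, and ESR1, PGR and CDH1 stayed under 0.5 RPKM, so among the epithelial markers read KRT8 and KRT18 were present and CDH1, the gene of E-cadherin, was near 0. ERBB2 was at 10.6 and 7.88 RPKM on average in the respective groups, and EPCAM at 4.62 and 8.26 RPKM. In bulk RNA, fewer cells with a transcript and less of it in each cell cannot be told apart, which holds for every receptor described here.

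Of the 10 receptors, 6 carry a death domain. TNFRSF1A (chromosome 12, 6328757 to 6342117, minus strand) encodes TNFR1, the broadly expressed receptor of TNF. It was at 44.2, 56.3 and 50.5 RPKM in shCTL libraries 1 to 3 and at 45.2, 46.8 and 45.4 RPKM in shHSF1 libraries 1 to 3. The groups overlapped, since shCTL 1 lay below all shHSF1 libraries and the other two shCTL libraries above them. The means were 50.3 ± 6.04 and 45.8 ± 0.888 RPKM (SD, n = 3 each), a log2 fold change of -0.13 with an SE of 0.0939. All log2 fold changes are shHSF1 minus shCTL on the log2(RPKM + 0.5) scale, which understates the change of genes at low levels.

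TNFRSF10A and TNFRSF10B (chromosome 8, 23191457 to 23225167 and 23020136 to 23069187, both on the minus strand) encode the death receptors DR4 and DR5, which bind the ligand TRAIL. Their levels differed in opposite directions. TNFRSF10B was at 48.5, 57.3 and 48.1 RPKM in shCTL and at 29.4, 31.8 and 24.1 RPKM in shHSF1. Every shHSF1 library lay well below every shCTL library, and the mean was 1.81-fold lower (51.3 ± 5.18 against 28.4 ± 3.95 RPKM, log2 change -0.85, SE 0.119). TNFRSF10A was at 15.1, 15.7 and 15.7 RPKM in shCTL and at 20.8, 22.0 and 19.2 RPKM in shHSF1. Again the groups did not overlap, but here the shHSF1 libraries were above, with a mean 1.33-fold higher (log2 change 0.40, SE 0.0777). The ratio of TNFRSF10A to TNFRSF10B within a library was 0.310, 0.274 and 0.327 in shCTL and 0.708, 0.693 and 0.798 in shHSF1, so DR5 RNA remained the more abundant in all 6 libraries while its lead over DR4 was smaller in shHSF1. Of the exonic bases of TNFRSF10B, 62 are shared with RHOBTB2 on the other strand, and the strand setting of the counting is not stated in the labels or files used here.

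FAS (chromosome 10, 88990559 to 89017061, plus strand), the receptor of Fas ligand through which cytotoxic T cells can kill their targets, was the weakest death receptor in shHSF1. It was at 0.906, 1.20 and 0.866 RPKM in shCTL and at 0.719, 0.846 and 0.633 RPKM in shHSF1. All shHSF1 values lay below the lowest shCTL value, by a margin smaller than the range within either group. The log2 fold change was -0.27 with an SE of 0.133, from 609 and 363 reads per group. FAS shares 203 exonic bases with FAS-AS1, listed at 0, and 110 with ACTA2, both on the opposite strand.

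TNFRSF21 (chromosome 6, 47231527 to 47309947, minus strand) encodes DR6, a death domain receptor studied mainly in neurons and lymphocytes. Its RNA was at 27.1, 26.6 and 23.9 RPKM in shCTL and at 61.2, 62.7 and 60.6 RPKM in shHSF1. Libraries within a group differed by a few RPKM only, and the shHSF1 mean was 2.38-fold higher (25.8 ± 1.72 against 61.5 ± 1.13 RPKM, log2 change 1.24, SE 0.0730). It was the receptor with the highest mean of the 10 in shHSF1 and stood at place 4 of 10 in shCTL.

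NGFR (chromosome 17, 49495293 to 49515020, plus strand) encodes p75, the low-affinity neurotrophin receptor of neurons, glia and neural crest derivatives, which also marks basal and stem-like epithelial cells. The shCTL libraries held 0, 0 and 1 read of it, and the shHSF1 libraries 341, 491 and 432 reads. In RPKM these were 0, 0 and 0.00796 against 2.34, 3.71 and 3.72, so the gene was near the limit of detection in shCTL and at a low but readable level in all shHSF1 libraries. The depth-scaled ratio of reads was 1603 with a 95% interval from 287 to 63384, which covers counting error only, as do all intervals given here. On the log2(RPKM + 0.5) scale the difference was 2.88 (SE 0.169). NGFR shares 202 exonic bases with LOC100288866 on the opposite strand, which was itself at 0.0191 RPKM over all libraries.

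**Figure D1:**
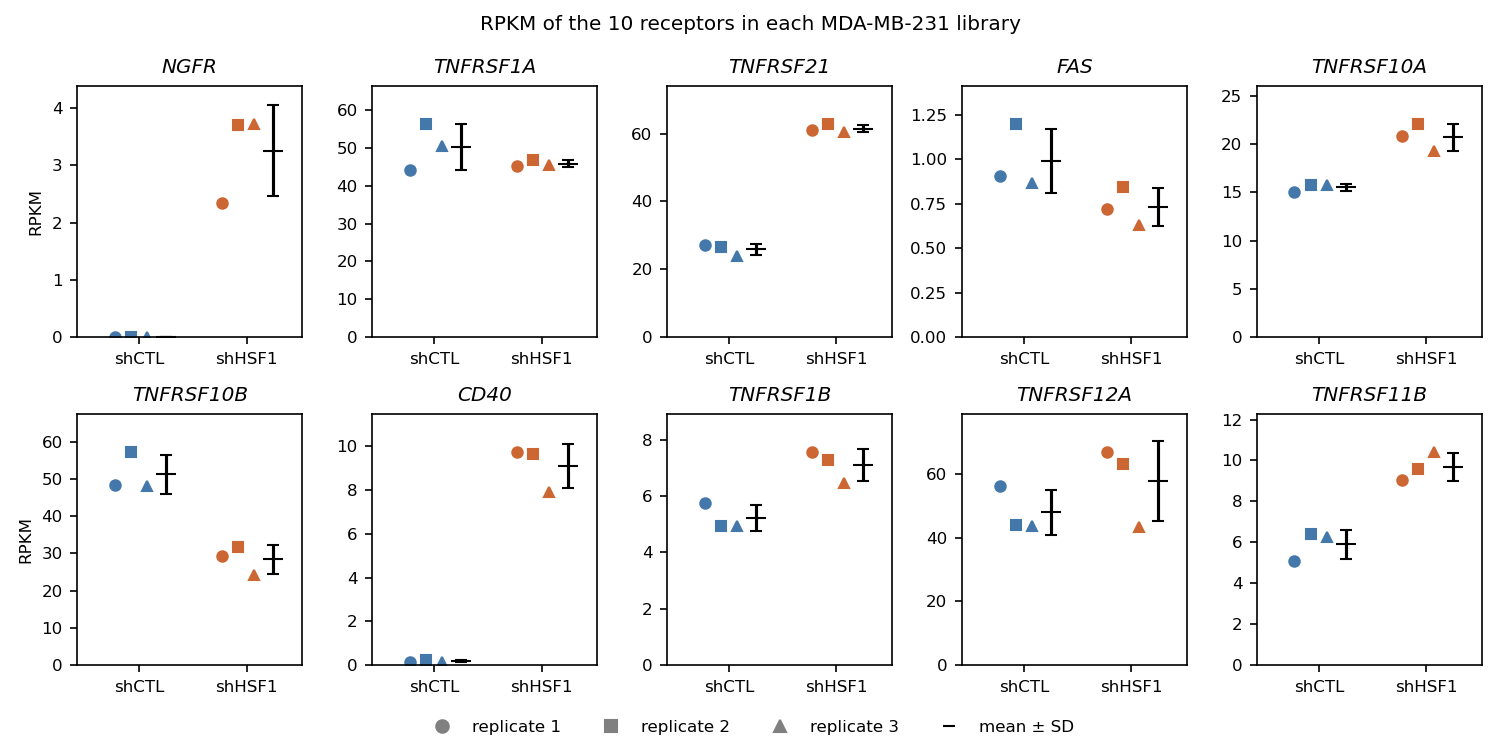
RPKM of the 10 receptors in each library, with 1 panel per gene on its own vertical axis starting at 0; symbols are replicates 1 to 3 of shCTL (blue) and shHSF1 (orange), and the bar is the mean ± SD (n = 3). NGFR and CD40 lie near 0 in shCTL, TNFRSF10B is lower in shHSF1, and only the panels of TNFRSF1A and TNFRSF12A show overlapping groups.

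The summed RPKM of these 6 death domain receptors was 144.0 ± 11.4 in shCTL and 160.4 ± 7.20 in shHSF1 (SD, n = 3), with overlapping values, while its composition differed. TNFRSF10B made up 35.6 ± 0.961% of the sum in shCTL and 17.7 ± 1.75% in shHSF1. TNFRSF21 went the other way, with 18.0 ± 1.69% against 38.4 ± 1.03%. DR6 thus held the largest share in every shHSF1 library, where TNFRSF1A held 28.6% and TNFRSF10A 12.9%. FAS stayed under 1% of the sum in all 6 libraries, and NGFR reached 2.03 ± 0.501% in shHSF1.

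**Figure D2:**
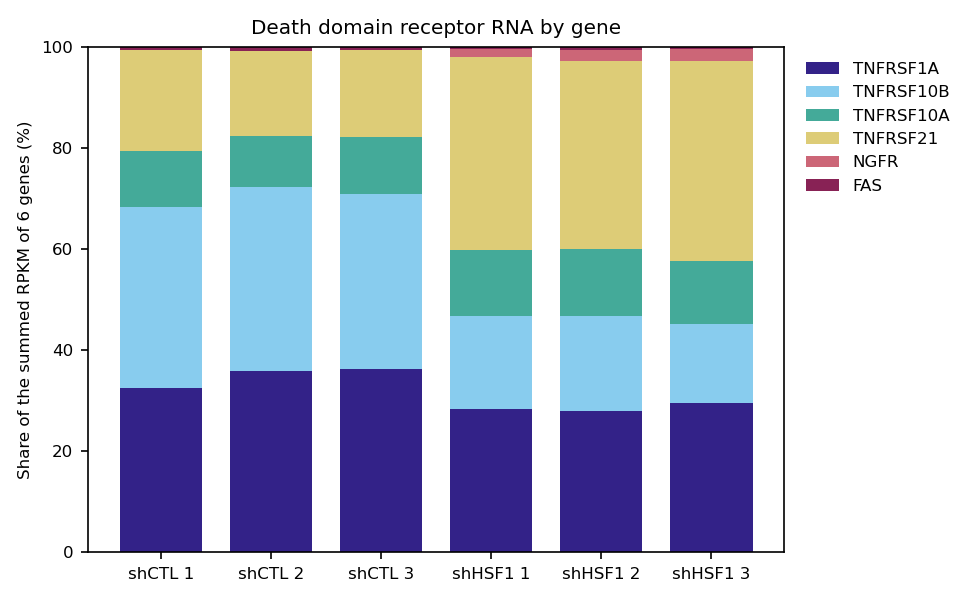
Share (%) of each of 6 death domain receptors in their summed RPKM, as stacked bars for each library. The share of TNFRSF21 is between 37.4% and 39.4% in the shHSF1 libraries and between 16.9% and 19.96% in shCTL, and the share of TNFRSF10B is smaller in shHSF1.

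The other receptors signal through TRAF proteins or act as decoys. CD40 (chromosome 20, 46118254 to 46129745, plus strand), which answers to CD40 ligand on activated T cells, had the largest log2(RPKM + 0.5) difference of the 10, while the ratio of levels was larger for NGFR. It was at 0.131, 0.236 and 0.148 RPKM in shCTL, from 17, 17 and 10 reads, and at 9.74, 9.65 and 7.93 RPKM in shHSF1, from 764, 687 and 496 reads. No shCTL library reached 1 RPKM, and no shHSF1 library was under 7 RPKM. The means were 0.172 ± 0.0565 and 9.11 ± 1.02 RPKM, a 53.0-fold difference, or 3.84 on the log2(RPKM + 0.5) scale (SE 0.124). Ordered from the highest to the lowest log2 fold change, CD40 stood at place 5 and NGFR at place 15 of the 12433 genes tested. Nothing is read from these places. Both genes were chosen with the comparison known and reached 0.5 RPKM only in their 3 shHSF1 libraries. Their log2 fold changes also depend on the 0.5 added before the logarithm.

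TNFRSF1B (chromosome 1, 12167003 to 12209220, plus strand) encodes TNFR2, the TNF receptor that has no death domain and is best known on immune and endothelial cells. It was at 5.74, 4.94 and 4.95 RPKM in shCTL and at 7.56, 7.28 and 6.44 RPKM in shHSF1. The lowest shHSF1 library stood above the highest shCTL library by less than 1 RPKM, and the mean was 1.36-fold higher (log2 change 0.41, SE 0.103). The ratio of TNFRSF1A to TNFRSF1B was 9.77 ± 1.88 in shCTL and 6.49 ± 0.535 in shHSF1, so RNA of TNFR1 exceeded that of TNFR2 several-fold in both groups.

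TNFRSF12A (chromosome 16, 3020312 to 3022382, plus strand) encodes Fn14, the receptor of the ligand TWEAK and a common receptor of carcinoma cells. It was at 56.2, 44.2 and 43.7 RPKM in shCTL and at 67.0, 63.3 and 43.5 RPKM in shHSF1. The groups overlapped because shHSF1 3 was the lowest of all 6 libraries. The log2 fold change was 0.25 with an SE of 0.173, and 0.45 without shHSF1 3.

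TNFRSF11B (chromosome 8, 118923557 to 118952144, minus strand) encodes osteoprotegerin, a secreted decoy that binds RANKL and also TRAIL. It was at 5.08, 6.38 and 6.24 RPKM in shCTL and at 9.04, 9.56 and 10.4 RPKM in shHSF1. The groups were clearly apart, with a mean 1.64-fold higher in shHSF1 (5.90 ± 0.712 against 9.67 ± 0.690 RPKM, log2 change 0.67, SE 0.110). The tested genes around it on the chromosome had a median change of -0.19 on the log2 scale, the lowest such median among the 10 receptors, for which it reached at most 0.17.

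By the limma fit over all tested genes, 6 of the 10 receptors were past the threshold of adjusted p under 0.05 as higher and 1, TNFRSF10B, as lower, where 17.7% of all 12433 tested genes were higher, 16.1% lower and 33.8% past the threshold in either direction. Values of the 2 groups did not overlap for 8 of the 10 receptors, and for 47.4% of all tested genes. The median log2 fold change was 0.41 over the 10 and 0.04 over all tested genes. Nothing is read from these counts, since the members were chosen with the comparison known, and CD40 and NGFR passed the filter on low values only through their 3 shHSF1 libraries. TNFRSF1B no longer passed the threshold when shCTL 2, shCTL 3, shHSF1 1 or shHSF1 2 was left out. TNFRSF12A passed only without shHSF1 3.

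Levels spanned a wide range. In shCTL the order of mean RPKM ran from TNFRSF10B through TNFRSF1A, TNFRSF12A, TNFRSF21, TNFRSF10A, TNFRSF11B, TNFRSF1B, FAS and CD40 to NGFR, and the ranges of the first 3 and those of TNFRSF11B and TNFRSF1B overlapped with their neighbours. In shHSF1 it ran from TNFRSF21 through TNFRSF12A, TNFRSF1A, TNFRSF10B, TNFRSF10A, TNFRSF11B, CD40, TNFRSF1B and NGFR to FAS. There the first 3, and TNFRSF11B with CD40, overlapped in the same way. The 10 together summed to 203.3 ± 9.28 RPKM in shCTL and 244.3 ± 19.5 RPKM in shHSF1, which was 72.7% and 76.9% of the RPKM of all 29 receptors.

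**Figure D3:**
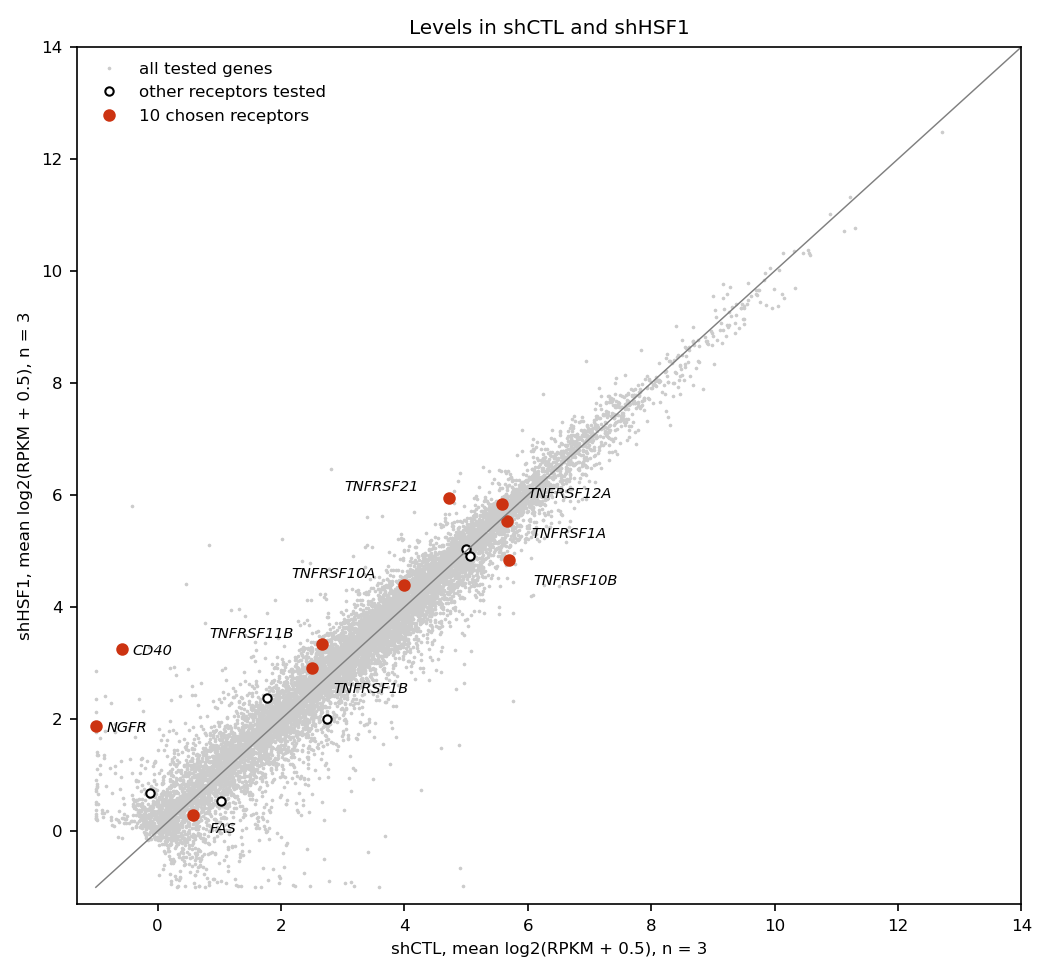
Mean log2(RPKM + 0.5) of each tested gene in shCTL (horizontal) and shHSF1 (vertical), n = 3 libraries each, with the 10 receptors in red, the 6 other receptors tested as open circles and the line of equal levels. CD40 and NGFR lie far above the line at the left edge, TNFRSF21 lies above it and TNFRSF10B below it.

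Promoter sequence was available for TNFRSF1A, TNFRSF1B, TNFRSF21 and FAS, 4 of the 10 receptors, in a RefSeq table on GRCh38.p14. The 250 bases before the transcription start given there are shown for 3 of them. TNFRSF21 and TNFRSF1B were higher in shHSF1, and TNFRSF1A, the partner of TNFRSF1B in TNF binding, had overlapping groups. These starts differ from the ends of the genes as counted. On the minus strand the counted TNFRSF21 and TNFRSF1A begin at 47309947 and 6342117, so their windows run a short way into the counted genes. Capitals mark GC boxes, the letters GGGCGG on either strand. They stand at chr6:47309906-47310155 (minus strand), chr1:12166741-12166990 (plus strand) and chr12:6342077-6342326 (minus strand), in the order given, each 5′ to 3′.
TNFRSF21: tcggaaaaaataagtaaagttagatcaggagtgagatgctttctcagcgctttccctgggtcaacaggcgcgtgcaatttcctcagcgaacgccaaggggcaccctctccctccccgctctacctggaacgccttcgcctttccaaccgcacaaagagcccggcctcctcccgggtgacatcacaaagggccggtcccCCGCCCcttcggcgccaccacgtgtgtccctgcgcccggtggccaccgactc
TNFRSF1B: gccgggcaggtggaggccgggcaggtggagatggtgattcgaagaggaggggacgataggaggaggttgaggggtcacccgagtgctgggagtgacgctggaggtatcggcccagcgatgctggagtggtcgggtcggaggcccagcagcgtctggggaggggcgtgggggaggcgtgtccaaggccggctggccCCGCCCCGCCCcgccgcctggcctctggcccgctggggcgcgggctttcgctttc
TNFRSF1A: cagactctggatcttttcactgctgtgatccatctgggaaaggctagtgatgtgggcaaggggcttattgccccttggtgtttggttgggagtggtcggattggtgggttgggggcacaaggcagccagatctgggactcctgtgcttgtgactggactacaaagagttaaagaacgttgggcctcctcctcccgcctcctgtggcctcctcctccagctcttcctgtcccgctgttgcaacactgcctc
TNFRSF21 had 1 GC box, beginning 52 bases before the start, TNFRSF1B had 2 that overlap by a base, beginning 55 and 50 bases before it, and TNFRSF1A had 0. A GC box was present in 42.6% of all 35116 windows of this length. The inverted pairs of heat shock element units, GAANNTTC (in 5.78% of windows) and TTCNNGAA (6.62%), were searched because HSF1 binds arrays of such units. Neither was in these 3 windows, nor were the AP-1 motif TGANTCA (6.57%) or the kappaB motif (9.96%). For FAS, windows before 3 start sites were read. The counted FAS gene begins at 88990559, so window 1 (from 88990548) lies almost wholly within it. Windows 2 and 3 (from 88991181 and 88990664) lie wholly within it. The AP-1 letters were found only 242 bases before start 1. The kappaB motif was found only 157 bases before start 2. GC boxes were in all 3 FAS windows, beginning 60 bases before start 1, 63 and 52 before start 2, and 176 before start 3. The windows of starts 1 and 3 overlap and hold the same box. FAS was not higher in shHSF1 (log2 change -0.27). A link between GC boxes and the direction of change was not tested, and 4 genes could not show one. A match is a run of letters and not a bound site, and its absence refers to these windows only.

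Of the 19 other receptors, 6 were expressed well enough to test, and 2 of these rose, 2 fell and 2 did not pass the limma test, where 17.7% of all tested genes rose and 16.1% fell. TNFRSF11A, which encodes RANK, the signalling receptor of RANKL, fell from 6.22 ± 0.527 to 3.54 ± 0.601 RPKM (SD, n = 3; log2 change -0.74, limma adjusted p = 0.00437). Its ratio to the decoy TNFRSF11B was 1.07 ± 0.218 in shCTL and 0.370 ± 0.0860 in shHSF1. TNFRSF19 (TROY) fell from 1.55 to 0.947 RPKM (log2 change -0.50, limma adjusted p = 0.0122). Among the TRAIL decoys, TNFRSF10C rose from 0.428 ± 0.183 to 1.12 ± 0.190 RPKM (log2 change 0.82, limma adjusted p = 0.00781), although 368 of its exonic bases are shared with LOC254896 on the same strand. In shCTL only library 2 of TNFRSF10C reached 0.5 RPKM (0.634), so that it was tested at all depended on the higher shHSF1 values. TNFRSF10D, the other decoy, was at 33.2 and 29.8 RPKM (limma adjusted p = 0.222). With TNFRSF10B lower, the ratio of TNFRSF10D to TNFRSF10B was 0.648 ± 0.0306 in shCTL and 1.06 ± 0.119 in shHSF1.

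RELT, a TRAF-binding receptor, went from 2.96 to 4.79 RPKM with overlapping groups (log2 change 0.60, limma adjusted p = 0.0428). Its call was lost without shCTL 2, shCTL 3, shHSF1 1 or shHSF1 2, with no filter and relative to neighbouring genes, and its adjusted p reached at most 0.128 over all alternatives. LTBR, the lymphotoxin beta receptor, was at 31.6 and 32.4 RPKM (limma adjusted p = 0.753). The highest group mean among the 13 untested receptors was that of TNFRSF13C, 0.268 RPKM in shHSF1, and EDAR and TNFRSF14 had no read in any library. For TNFRSF14, 50% of the annotated length lies on alternate contigs, which can lower its count.

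Of 18 ligands of the family, 5 were tested, of which 2 rose, 1 fell and 2 did not pass (17.7% and 16.1% of all tested genes rose and fell). TNFSF10, which encodes TRAIL, the ligand of DR4 and DR5, was at 1.58, 2.03 and 1.59 RPKM in shCTL and at 2.23, 3.06 and 3.02 RPKM in shHSF1 (log2 change 0.55, limma adjusted p = 0.023). The groups did not overlap, but the adjusted p rose above 0.05 without shCTL 1, shCTL 3, shHSF1 2 or shHSF1 3 and with no filter, to at most 0.0863. TNFSF15 (TL1A) rose from 0.399 to 1.19 RPKM (limma adjusted p = 0.0162), a call that was lost without shCTL 3 (adjusted p = 0.0524). Of its shCTL libraries only shCTL 2 reached 0.5 RPKM (0.745), so TNFSF15 too met the filter through its higher shHSF1 values. EDA, the ectodysplasin of skin appendage development, fell from 1.91 ± 0.335 to 0.0535 ± 0.0128 RPKM (log2 change -2.12, limma adjusted p = 4.07e-05), and it passed the filter only through the 3 shCTL libraries, where it was high.

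Several ligands of the 10 receptors had few reads or none in the same cells. CD40LG had no read in any library, as had TNF, LTA and TNFSF11, the gene of RANKL, though most of the annotated length of TNF (87%) and LTA (86%) is repeated on alternate contigs. FASLG had 5 reads in shCTL and 1 in shHSF1. TNFSF12, which encodes TWEAK, the ligand of Fn14, was at 3.59 and 3.18 RPKM (limma adjusted p = 0.555). Of its exonic bases, 594 (36.6%) are shared with the readthrough gene TNFSF12-TNFSF13 on the same strand. TNFSF9, the ligand of 4-1BB, was at 4.27 and 3.65 RPKM (limma adjusted p = 0.434).

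For p75, 17 co-receptors, ligands and adaptors were listed and 10 tested, of which 4 rose, 3 fell and 3 did not pass, beside 17.7% and 16.1% of all tested genes. SORCS2, a sortilin-family co-receptor of p75 for pro-neurotrophins, had 4 reads in all shCTL libraries together and 1476 in shHSF1. It rose from 0.00447 to 2.09 ± 0.338 RPKM (log2 change 2.35, limma adjusted p = 2.47e-05), while the genes around it had a median change of -0.36. SORCS2 passed the filter on low values only through its 3 shHSF1 libraries, so that it was tested at all depended on the difference. SORT1, its better known relative sortilin, rose from 40.5 to 53.2 RPKM (log2 change 0.39, limma adjusted p = 0.00985). ARHGDIA, a GDP-dissociation inhibitor that binds p75, rose from 171.0 to 224.1 RPKM (limma adjusted p = 0.0207), and this call was lost without shCTL 2, shCTL 3, shHSF1 1 or shHSF1 2 (adjusted p at most 0.0776).

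MAGED1 (NRAGE), an adaptor of p75 in cell death, fell from 28.8 ± 7.35 to 5.33 ± 0.442 RPKM (log2 change -2.30, limma adjusted p = 8.13e-05). It was at 22.2, 36.8 and 27.5 RPKM in shCTL and at 5.26, 5.80 and 4.92 RPKM in shHSF1, so its decrease was larger than the wide spread among shCTL libraries. BEX3 (NADE), another p75-binding protein, fell from 137.4 to 94.0 RPKM (limma adjusted p = 0.00727), and NTF3, which encodes neurotrophin-3, from 1.34 to 0.516 RPKM (limma adjusted p = 0.00167). BDNF was at 8.84 and 8.91 RPKM (limma adjusted p = 0.992). The neurotrophin receptor NTRK2 was under the filter at 0.473 and 0.348 RPKM, and the p75 co-receptor LINGO1 had no read.

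The proteins that carry death receptor signals were listed as 18 genes, of which 16 were tested. Of these 3 rose, 5 fell and 8 did not pass, where 17.7% of all tested genes rose and 16.1% fell. When the fit held a replicate block, 6 rose and 5 fell, beside 26.2% and 22.1% of all tested genes. CASP10 fell from 2.63 ± 0.201 to 1.19 ± 0.165 RPKM and CASP8, the other initiator caspase, from 11.4 ± 0.207 to 7.93 ± 0.503 RPKM (log2 changes -0.90 and -0.50, limma adjusted p = 0.00106 and 0.00295). CFLAR, the gene of the caspase-8 inhibitor FLIP, fell from 4.69 to 3.27 RPKM (log2 change -0.46, limma adjusted p = 0.00516). These 3 genes are neighbours on chromosome 2, between 201116104 and 201287711. The median log2 fold change of the tested genes around them was -0.47 for CASP8 and CASP10 and -0.51 for CFLAR, and relative to these neighbours CASP8 and CFLAR differed by 0.01 and 0.09, with adjusted p of 0.942 and 0.469. CASP10 remained lower relative to its neighbours, by a log2 change of -0.39 (adjusted p = 0.0401).

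CASP6, an effector caspase, fell from 16.0 to 8.81 RPKM (log2 change -0.82, limma adjusted p = 0.000176), with a median of -0.46 around it. CRADD, an adaptor with a death domain, fell from 23.6 to 16.4 RPKM (log2 change -0.51, limma adjusted p = 0.00268). DIABLO, the mitochondrial antagonist of inhibitors of apoptosis, rose from 15.3 to 20.1 RPKM (limma adjusted p = 0.00451), and 916 of its exonic bases are shared with B3GNT4 on the opposite strand. FAF1, a FAS-associated factor, rose from 36.4 to 47.2 RPKM (limma adjusted p = 0.00331). MADD, which binds the death domain of TNFR1, rose from 13.5 to 16.9 RPKM (limma adjusted p = 0.0498), a call that was lost in 8 of 15 alternatives. These were the fits without shCTL 1, shCTL 2, shCTL 3, shHSF1 1 or shHSF1 2, with a pseudocount of 0.1, with no filter, and relative to neighbouring genes (adjusted p = 0.122). The shared adaptors FADD and TRADD (limma adjusted p = 0.117 and 0.253) and the kinase RIPK1 (0.756) did not pass. With the replicate block, FADD (adjusted p = 0.0259), BID (0.0390) and XIAP (0.0204) passed as higher.

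**Figure D4:**
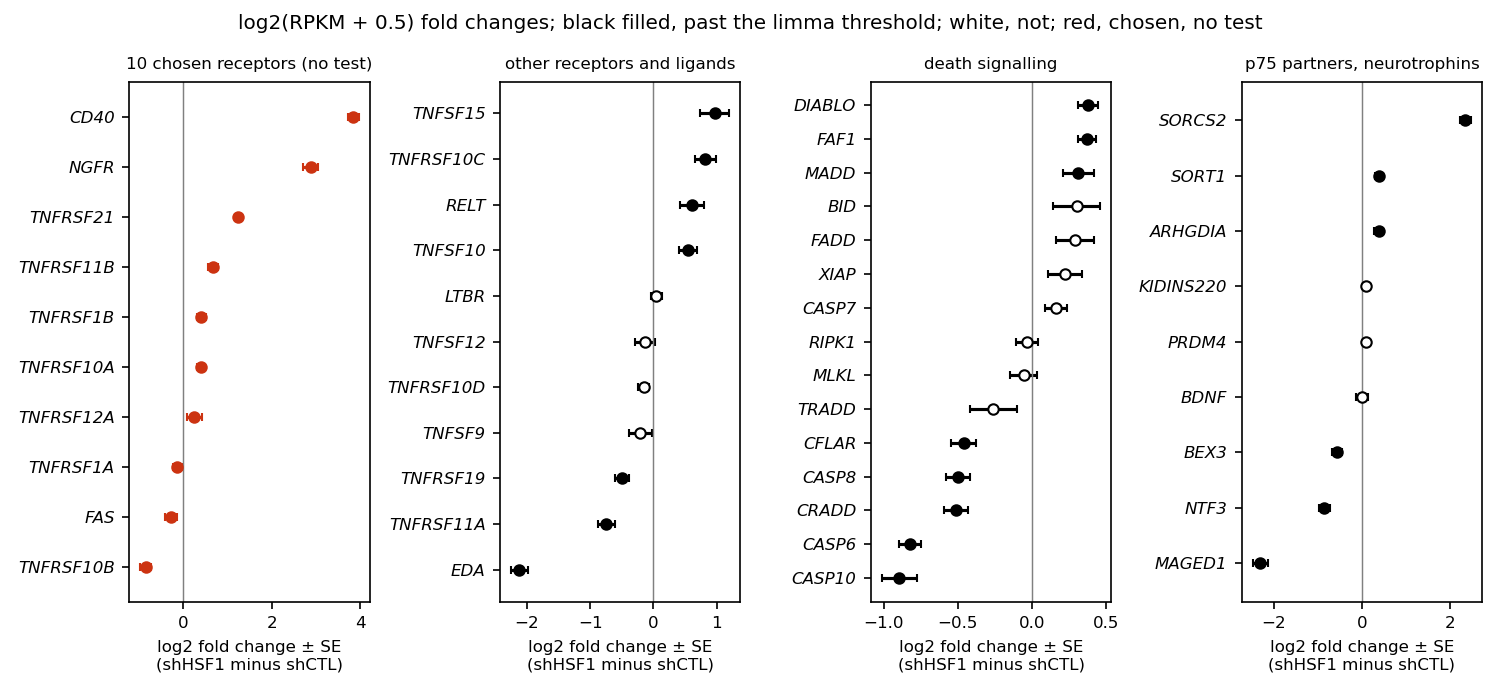
Log2 fold changes (shHSF1 minus shCTL, on the log2(RPKM + 0.5) scale) ± SE for the 10 receptors (red, no test), the other receptors and ligands tested, the death signalling genes and the p75 partners reported here; horizontal axes differ between panels, filled black points passed the limma threshold and open points did not. CD40 is the highest of the 10 at 3.84 and TNFRSF10B the lowest at -0.85, and CASP10 is the lowest of the death signalling genes at -0.90.

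Among 21 genes for TRAF proteins and the ubiquitin machinery that receptors such as CD40 and TNFR2 use, all were tested, 7 rose, 3 fell and 11 did not pass, beside 17.7% and 16.1% of all tested genes. With the replicate block, 7 rose and 5 fell, beside 26.2% and 22.1%; the additional lower genes were MAP3K7 (adjusted p = 0.0137) and TRAF6 (0.0450). TRAF1, an adaptor that binds TNFR2 and CD40 complexes, was at 0.428, 1.25 and 0.809 RPKM in shCTL and at 6.11, 5.05 and 3.56 RPKM in shHSF1 (log2 change 2.04, limma adjusted p = 0.00093). The groups were well apart, although the libraries varied within each. TNFAIP3 (A20), which edits ubiquitin on RIPK1 and restrains NF-kappaB, rose from 1.52 ± 0.368 to 4.70 ± 0.917 RPKM (log2 change 1.36, limma adjusted p = 0.00106). BIRC3 (cIAP2), a ubiquitin ligase bound by TRAF proteins, rose from 9.35 ± 3.26 to 19.4 ± 1.89 RPKM (log2 change 1.06, limma adjusted p = 0.00759), where the genes around it had a median of -0.28.

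TRAF3 rose from 4.36 to 8.32 RPKM (limma adjusted p = 0.000703) and TRAF2 from 6.06 to 9.78 RPKM (limma adjusted p = 0.00375). MAP3K14, the NIK kinase of the noncanonical NF-kappaB pathway, which TRAF2 and TRAF3 keep at low protein levels until CD40 is engaged, rose from 3.70 to 5.77 RPKM (limma adjusted p = 0.013, and 0.0535 without shHSF1 2). CYLD, a deubiquitinase that restrains the pathway, fell from 14.6 to 9.43 RPKM (limma adjusted p = 0.0011), and TAB2, an adaptor of the TAK1 kinase, from 35.7 to 24.9 RPKM (limma adjusted p = 0.00328). TANK fell from 25.2 to 18.8 RPKM (limma adjusted p = 0.00495), but it lies on chromosome 2 among genes with a median log2 fold change of -0.46. Relative to them it differed by 0.09 (adjusted p = 0.438).

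CD40 and NGFR are also known from other cell types, so markers of those were read in the same libraries. Of 5 B cell markers, all were under 0.5 RPKM, MS4A1 had no read, and the summed RPKM was 0.0813 to 0.144 in shCTL and 0.0562 to 0.117 in shHSF1. Of 7 myeloid and dendritic markers, TYROBP had no read and PTPRC reached at most 0.0451 RPKM. For PTPRC, 34.6% of the annotated length lies on alternate contigs, which can lower its count. The sum of these 7 was 0.464 to 1.31 RPKM in shCTL and 1.35 to 2.26 RPKM in shHSF1, carried mostly by CD14 and CSF1R. CD14 did not pass the limma test (adjusted p = 0.183) but passed with the replicate block (adjusted p = 0.0127). CSF1R lay under the filter and was not tested. It had 31 reads in shCTL and 254 in shHSF1 (means 0.0504 and 0.506 RPKM), and every shHSF1 library was above every shCTL library. That sum moved with CD40, and its part in the result was not tested. Of 5 glial and neural crest markers, SOX10 had 1 read in all, and the sum, mostly ERBB3, was 1.16 to 1.81 RPKM in shCTL and 1.34 to 1.65 RPKM in shHSF1, so it did not move with NGFR. Fibroblast markers summed to 0.112 to 0.249 RPKM in shCTL and 0.278 to 0.314 RPKM in shHSF1, with LUM and THY1 at no read. PDGFRB lay under the filter, with 110 reads in shCTL and 231 in shHSF1. The fibroblast sum was thus low but moved with CD40 and NGFR, and its part in the result was not tested. Endothelial markers summed to 10.5 to 11.5 RPKM in shCTL and 2.63 to 2.90 RPKM in shHSF1, nearly all of it KDR.

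Genes whose profile over the 6 libraries was most like that of CD40 or NGFR were found by the root mean square difference of centred log2(RPKM + 0.5) values, as a description. For CD40 these included TGM2, a protein-crosslinking enzyme (difference 0.104), the chemokine CXCL1 (0.166), the actin-bundling LCP1 (0.234) and EMC10 (0.312). TGM2 went from 6.59 to 88.6 RPKM. For NGFR they were SERPINB9, an inhibitor of granzyme B (0.122), RCSD1 (0.164), the polarity gene PARD6B (0.200), BCHE, butyrylcholinesterase (0.210), and the homeobox gene TGIF2LX (0.234). BCHE and TGIF2LX had no read in shCTL and 3.90 and 2.92 RPKM in shHSF1, and SERPINB9 went from 0.0948 to 4.44 RPKM.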

How the data were processed

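A Qiagen column kit served for RNA extraction and a KAPA kit for mRNA libraries, per the labels' protocols. The deposited RPKM values came from reads aligned and counted with STAR and featureCounts on hg38, per the submitters' processing notes; versions, annotation release and strand setting are not stated in those sources. Columns named shScr were taken as the group that the titles call shCTL, with replicates matched by number. The deposited gene lengths were used to recover whole reads, which succeeded for 100% of values within 0.01 read and gave the depth of each library.

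The test covered 12433 genes that reached 0.5 RPKM in 3 or more libraries. It used limma 3.58.1 (R 4.3.3) on log2(RPKM + 0.5), with group as the only term, an empirical Bayes trend, two-sided tests, Benjamini-Hochberg adjustment over all tested genes and a threshold of 0.05. The fit was also run on simulated counts that were drawn independently for each library. They lacked the pairing by replicate number described below, so that run does not bear on p-values under such pairing. The 10 receptors, the gene lists and the marker lists were chosen with earlier results of these data known. Named genes are all 10 receptors, HSF1, up to 6 genes per direction with the largest change past the threshold in each list, and the 5 genes most like CD40 and NGFR; other genes were named after their values were seen. Some genes of the lists count in the totals and are not reported here.

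Same-numbered libraries of both groups deviated together from their group means (correlations 0.468, 0.307 and 0.451, against -0.370 to -0.0200 for different numbers), and by these values alone the numbers pair the samples. The planned model without a block was kept for every p-value, so those p-values ignore the pairing; values with the block are given for each count or named call that it changed. Neighbours are the about 40 tested genes around a gene. Other alternatives were leaving out each library, pseudocounts of 0.1 and 1, other filters, quantile and median scaling, and voom on the recovered reads. Within groups, chi-square per gene between libraries was 16.7 to 52.5, so no pair agreed within counting noise, which does not tell separate cultures from repeat libraries of the same RNA. Figures were drawn with matplotlib 3.10.9.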

Additional observations from a re-analysis of the deposited data

How the results depend on the processing

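No receptor of the 10 changed the sign of its log2 fold change in any alternative that gave it a value, but the size for the lowest genes depends on the scale: CD40 ranged from 3.10 (pseudocount 1) to 5.77 (voom on recovered reads) and NGFR from 2.07 to 9.45. FAS has no value with a filter of 1 RPKM. Leaving out 1 library gave 1383 to 2374 higher genes over all genes tested, with 1404 without shCTL 3 and 1383 without shHSF1 2. It also gave 1 to 2 higher genes among the other receptors and 0 to 2 among the ligands, with 0 without shCTL 3. The other receptors had 1 higher gene with a filter of 1 RPKM and 1 when centred on neighbouring genes. The death signalling genes had 3 lower genes when centred on neighbouring genes. With the replicate block, 3257 genes were higher and 2750 lower over all genes, 6 death signalling genes were higher and 5 TRAF and ubiquitin genes were lower; the counts for the 10 receptors, the other receptors, the ligands and the p75 partners were the same as without it. Voom on the recovered reads called 2307 genes higher and 2062 lower.

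Centred on neighbouring genes, the log2 fold changes of CASP8 (0.0090), CFLAR (0.0895), TANK (0.0875) and the marker ERBB3 (0.0196) had the opposite sign to the planned fit, and ERBB3 ranged from -0.149 to 0.0878 when 1 library was left out. The centring removes the change that nearby genes share; for ERBB3 the cause was not tested. The median log2 fold change of all tested genes was 0.04, and no scaling moved it by 0.1. Genes at a few reads, such as NGFR in shCTL, are limited by depth.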

Other observations

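Several genes of these pathways lay under the filter on low values and have no test; they were chosen after their values were seen. RIPK3, the kinase of necroptosis, had 34 reads in shCTL and 91 in shHSF1 (0.117 and 0.416 RPKM). TNFRSF9, which encodes the T cell costimulatory receptor 4-1BB, had 22 and 103 reads (0.0307 and 0.150 RPKM), and TNFSF13, the gene of APRIL, had 8 and 76 reads (0.0309 and 0.287 RPKM), with 55.8% of its annotated exonic bases shared with the readthrough gene TNFSF12-TNFSF13. TNFRSF25, the receptor DR3 of TL1A, had 28 reads in shCTL and 2 in shHSF1.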
